A study of Mus musculus with 4 samples.

Results

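The transcription factors that direct dendritic cell (DC) development were followed across mouse splenocytes in the steady state and after GM-CSF treatment. The members are 10 genes taken from a fixed list, Irf4, Irf8, Batf3, Zbtb46, Id2, Tcf4, Klf4, Relb, Notch2 and Spi1, out of 27998 genes in the count table, and all 10 were measured. CITE-seq, which reads RNA and antibody tags from the same single cells, was performed on splenocytes of C57BL/6 mice (8 to 12 weeks of age) sorted for CD11b. One library came from untreated mice in the steady state (4827 cells), and 1 library, called GM, came from mice given 3 once-daily injections of 10 µg of GM-CSF (6804 cells), with cells taken 24 hours after the last injection. The deposited tables name 12 cell types and place 6075 cells in a bundle of monocytes, macrophages and DCs (MoMacDC cells), of which 2135 are steady-state cells and 3940 are GM cells. The MoMacDC cells carry 17 deposited RNA clusters, numbered 0 to 16, and subset labels for cells with high CD115, from P-I to P-IV.

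DC fate is set by a small circuit of transcription factors. IRF8 with BATF3 and ID2 is known for type 1 conventional DCs (cDC1s), IRF4 with KLF4, NOTCH2 and RELB for type 2 conventional DCs (cDC2s), and TCF4 for plasmacytoid DCs, where it is held in check by ID2. ZBTB46 marks the conventional DC lineage, and PU.1, the product of Spi1, acts upstream in all myeloid cells. GM-CSF signals through STAT5 and is used to grow DCs from marrow or monocytes in culture.

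Levels are given as CPM, the summed unique molecular identifiers (UMIs) of a gene in a group of cells over all UMIs of that group, scaled to 1000000, with an exact 95% Poisson interval. Shares are the percent of cells with at least 1 UMI, with an exact Clopper-Pearson interval where one is given. Each condition has 1 library, so no test between conditions was possible, the effect of GM-CSF cannot be told apart from a difference between libraries, and every interval covers counting error only. A gene is named as called where the ratio of CPM was at least 2 or at most 0.5 with at least 50 UMIs over both groups. The libraries held 22358903 and 35007567 UMIs, with medians of 3371 and 4916 UMIs per cell over all cells and of 6894 and 6654 in MoMacDC cells (steady state first, here and below). The 2 libraries shared 8 cell barcodes.

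The deposited names were checked against marker genes. Activated DCs carried their markers, such as Ccr7, at 3832 and 2525 CPM. Cells labelled cDC2-A held markers of natural killer (NK) cells at 15364 and 15527 CPM, with the cDC2 markers Clec4a4 and Cd4 at 0 in the steady state, so the label does not match their RNA. The 43 steady-state cells of the cluster MoMacDC_c4 held NK markers at 9487 CPM. Xcr1 and Clec9a, which define cDC1s, were at or near 0 in MoMacDC cells. Of the listed DC progenitor markers (Flt3, Kit, Cd34 and Cd7), Cd34 was at 0 in cells labelled Progenitor DC. Values of the other markers are not given here, and the paper describes this cluster as expressing progenitor DC markers. RNA cluster 16 (17 cells) carried plasma cell markers at 61804 and 28787 CPM.

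The promoters of the members that the results below turn on are shown first, because GM-CSF acts through STAT proteins. The windows span 250 bases before to 50 after the start, from RefSeq on GRCm38.p6, and 7 of the 10 members matched one (not Tcf4, Relb or Spi1). Capitals mark a match to TTCNNNGAA (a STAT motif) or TGANTCA (an AP-1 motif), searched on both strands. Batf3 is shown at chr1:191098164-191098463 (plus strand), the first window of Irf8 at chr8:120736108-120736407 (plus strand), Zbtb46 at chr2:181424339-181424638 (minus strand) and Irf4 at chr13:30748983-30749282 (plus strand). In the GENCODE annotation the windows of Batf3 (gene chr1:191097847-191108945) and Zbtb46 (gene chr2:181387762-181459426) lie within the gene, and those of Irf8 (gene chr8:120736358-120756694) and Irf4 span its first base.
Batf3: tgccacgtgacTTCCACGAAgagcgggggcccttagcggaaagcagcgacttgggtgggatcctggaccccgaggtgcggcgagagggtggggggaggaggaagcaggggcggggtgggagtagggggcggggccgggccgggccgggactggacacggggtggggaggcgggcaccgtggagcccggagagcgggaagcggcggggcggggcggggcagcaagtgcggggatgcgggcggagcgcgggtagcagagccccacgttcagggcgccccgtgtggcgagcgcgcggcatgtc
Irf8: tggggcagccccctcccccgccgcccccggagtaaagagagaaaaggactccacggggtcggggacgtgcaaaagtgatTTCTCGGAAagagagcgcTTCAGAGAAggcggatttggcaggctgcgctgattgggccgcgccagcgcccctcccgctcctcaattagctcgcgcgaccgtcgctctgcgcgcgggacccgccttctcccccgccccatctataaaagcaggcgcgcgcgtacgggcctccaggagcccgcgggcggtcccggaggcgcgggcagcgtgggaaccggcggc
Zbtb46: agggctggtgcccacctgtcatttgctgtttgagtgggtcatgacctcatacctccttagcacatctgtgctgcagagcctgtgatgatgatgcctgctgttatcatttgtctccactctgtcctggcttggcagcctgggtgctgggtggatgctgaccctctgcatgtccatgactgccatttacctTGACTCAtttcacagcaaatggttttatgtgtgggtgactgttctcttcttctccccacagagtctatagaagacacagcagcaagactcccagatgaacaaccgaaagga
Irf4: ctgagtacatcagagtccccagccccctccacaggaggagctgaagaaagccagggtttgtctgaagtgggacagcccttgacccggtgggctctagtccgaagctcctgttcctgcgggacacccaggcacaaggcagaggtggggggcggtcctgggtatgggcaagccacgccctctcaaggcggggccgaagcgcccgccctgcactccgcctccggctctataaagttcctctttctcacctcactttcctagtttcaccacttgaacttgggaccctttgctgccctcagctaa

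The Batf3 window held 1 STAT match and the Irf8 window held 2, a motif found in 8.3% of 32851 windows of the same length. Zbtb46 held 1 AP-1 match, found in 7.81% of windows. No match was found in the second window of Irf8 or in those of Irf4, Id2, Klf4 or Notch2, nor in any member for the interferon-stimulated response element (GAAA, any 2 bases, GAAA, in 3.44% of windows), the ETS-IRF composite element (GGAA, any 2 bases, GAAA, in 2.72%) or the PU.1 motif GAGGAAGT (3.2%). A match of letters in these windows is a description of sequence and not evidence of binding.

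Among MoMacDC cells, Batf3 and Zbtb46 were higher and Tcf4 and Klf4 lower in the GM library by the 2-fold rule. Of 10860 genes that could be compared, 8.66% were called higher and 9.46% lower, beside 2 and 2 of the 10 members. The median ratio was 0.764 over the members and 0.959 over all genes.

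Batf3, a bZIP factor that works with IRF8 in cDC1s, was at 60.1 CPM in the steady state and 204 CPM in GM, a ratio of 3.39 (3.16 to 3.64). The share of positive cells was 26.4% and 67.2%. In neutrophils, which should lack the gene, 0.685% and 0.672% of cells were positive at median depths of 6462 and 4404 UMIs. In cells labelled granulocytes the shares were 0.570% and 3.69% at median depths of 1770 and 1229 UMIs. Zbtb46, the zinc finger factor of conventional DCs, was at 13.2 and 27.5 CPM, a ratio of 2.09 (1.78 to 2.46), with 6.51% and 15.8% of cells positive and none of the neutrophils. Both genes differed between the libraries in level as well as in the share of positive cells, and the shares kept their order once each cell was thinned to 1000 UMIs (5.94% and 18.5% for Batf3, 0.802% and 2.91% for Zbtb46).

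Id2, which encodes an inhibitor of E proteins such as TCF4, was at 153 and 293 CPM, a ratio of 1.91 (1.83 to 2.01), just under the 2-fold rule. It reached 2.10 without the MoMacDC_c4 cells, whose steady-state part carries NK markers, and NK cells also use Id2. Tcf4 itself was at 131 and 50.2 CPM, a ratio of 0.382 (0.356 to 0.409), and its share of positive cells was 49.5% and 25.2%. Id2 and Tcf4 thus differed in opposite directions between the libraries.

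The interferon regulatory factors differed from each other. Irf8 was at 329 CPM in the steady state and 182 in GM, a ratio of 0.553 (0.531 to 0.575), with 71.1% and 57.6% of cells positive. Irf4 was at 33.8 and 43.2 CPM, a ratio of 1.28 (1.15 to 1.42), with 15.1% and 23.3% positive. Of the 506 steady-state Irf4 UMIs, 76 came from the 15 cells of cluster 16, which carries plasma cell markers, and without that cluster the ratio was 1.48. Neither gene passed the 2-fold rule in either direction.

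Klf4, a zinc finger factor of monocytes and cDC2s, was at 493 and 215 CPM, a ratio of 0.435 (0.421 to 0.451). This ratio also carries the cell mix. The cluster MoMacDC_c5 held 2251 of 7378 steady-state Klf4 UMIs in 486 cells and 177 of 5820 GM UMIs in 139 cells. A ratio without these cells is not given. Klf4 was at 430 and 207 CPM within MoMacDC_c1 and at 393 and 239 CPM within MoMacDC_c2. Notch2, a receptor needed by splenic cDC2s, was at 108 and 60.3 CPM (ratio 0.557), and Relb, an NF-kB subunit of activated DCs, was at 53.0 and 36.3 CPM (ratio 0.685). Spi1 had the ratio nearest 1 of the 10 members, with 613 and 516 CPM (ratio 0.842) and 92.9% and 89.9% of cells positive. The shares of positive cells were 80.4% and 63.4% for Klf4, 50.6% and 32.8% for Notch2 and 25.4% and 19.8% for Relb. When only cells with a CD115hi subset label were kept, the ratios of Zbtb46 and Id2 were 5.43 and 3.59, and that of Klf4 was 0.545, no longer past the 2-fold rule. For Zbtb46 the steady-state side held only 3 UMIs in P-I cells and 2 in CD115hi cells outside P-I to P-IV. The subset mix also differed, with 139 P-I and 7 P-IV cells in the steady state and 187 and 313 in GM. These ratios therefore do not compare like cells.

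The shares were read beside cell types taken here to lack each gene. In T cells (median 3747 and 2357 UMIs), 5.17% and 0% of cells had an Irf8 UMI, 9.77% and 0% a Klf4 UMI, 6.9% and 7.69% a Notch2 UMI and 8.05% and 2.56% a Spi1 UMI. Steady-state T cells held 41 Klf4 UMIs in 17 of 174 cells (56.4 CPM). Whether T cells truly lack Klf4 or Notch2 was not tested. In neutrophils 9.59% and 2.13% had a Tcf4 UMI and none an Irf4 or Zbtb46 UMI, and in B cells (median 2976.5 and 2741 UMIs) 7.65% and 12.7% had an Id2 UMI. All of these lay below the shares in MoMacDC cells.

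**Figure D1:**
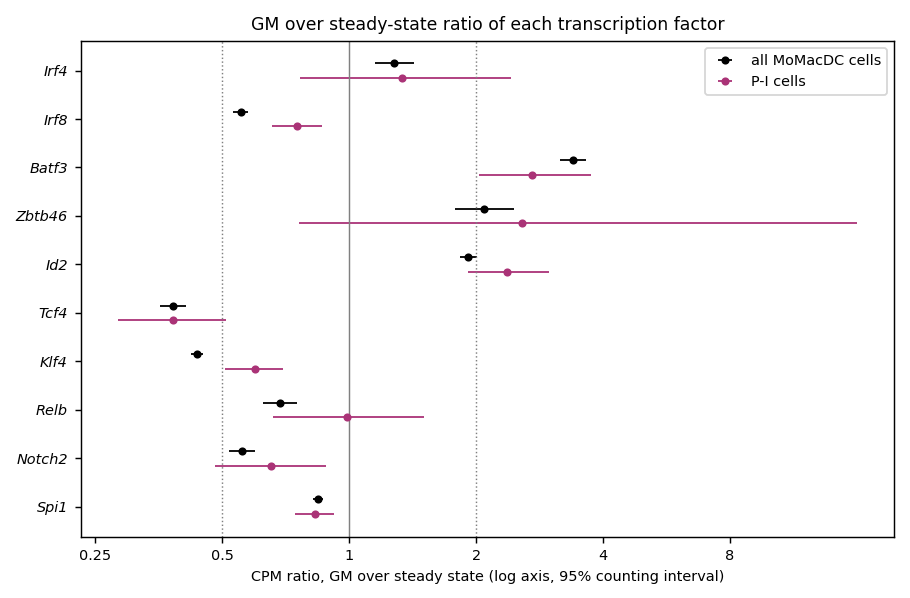
CPM ratio of GM over steady state for each of the 10 genes, on a log axis, with exact 95% intervals for counting error. Batf3 at 3.39 and Zbtb46 at 2.09 lie at the upper end, and Tcf4 at 0.382 and Klf4 at 0.435 at the lower end.

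The difference in Klf4 was also found outside MoMacDC cells. Within single cell types, its ratio was at most 0.5 in 6 of 8 types that held enough UMIs, among them neutrophils (49.5 and 3.24 CPM, ratio 0.0669), B cells (308 and 31.9 CPM, ratio 0.11) and macrophages (498 and 84.7 CPM, ratio 0.189). Few cells carried some of these levels, since the 54 UMIs of steady-state neutrophils came from 10 of 146 cells and the GM macrophages held 4 UMIs in 22 cells. Only MoMacDC_c4 had an interval that was not below 1, at 1.95. Fos, an immediate early gene, was lower in the GM library in 11 of 11 cell types compared, with ratios from 0.116 to 0.391, and Jun was lower in 10 of 11. The part of this library-wide difference in the Klf4 values was not tested.

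Over all pairs of member and cell type, 73 of 110 held enough UMIs to be compared, and 11 were called higher and 17 lower in GM. Over 61788 pairs of any gene and cell type, 5.77% were called higher and 7.74% lower. Batf3 supplied 5 of the 11 pairs that were higher, and Klf4 supplied 6 of the 17 that were lower. Id2 was called higher in 3 of 10 types, Tcf4 lower in 3 of 7 and Irf8 lower in 3 of 8. Irf4 was called in none of 5. The calls include MoMacDC_c4, whose steady-state cells carry NK markers, with Batf3, Zbtb46 and Spi1 higher and Irf8 and Tcf4 lower. Another of the Irf8 calls came from cells labelled cDC2-A, which also carry NK markers.

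Batf3 was higher in GM, with an interval above 1, in each of the 6 cell types that could be compared. MoMacDC_c1 had 50.2 and 185 CPM, a ratio of 3.67 (3.32 to 4.08), and MoMacDC_c2 had 127 and 263 CPM, a ratio of 2.06 (1.79 to 2.4). MoMacDC_c5, the cluster richest in Klf4, had 5.11 and 115 CPM, a ratio of 21.8 (11.5 to 48.3) that rests on 11 and 45 UMIs. Progenitor DCs had 163 CPM in the steady state and 207 in GM, a ratio of 1.26 (1.08 to 1.49). The levels in the steady state therefore spread widely over the MoMacDC cell types, while in GM c1, c2, c4, c5 and Progenitor DCs lay between 115 and 263 CPM.

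Granulocytes, phagocytes that share the CD11b gate, had 2.99 CPM in the steady state and 29.4 CPM in GM, a ratio of 9.47 (5.18 to 20.6). In GM, 71 UMIs were spread over 66 of 1791 granulocytes (3.69%), and 0 of the 66 cells were called doublets. These cells had a median of 1174.5 UMIs, and all GM granulocytes had a median of 1229. Irf8 gave 3 UMIs in all GM granulocytes, and MoMacDC cells of the same library gave 5516 Batf3 and 4933 Irf8 UMIs. The granulocytes with Batf3 gave 0 Irf8 UMIs, which says nothing of them, since 3 UMIs over 1791 cells are too few. GM neutrophils gave 6 Batf3 UMIs in 893 cells.

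Zbtb46 was highest in Progenitor DCs, at 93.1 CPM (76.8 to 112) in the steady state and 54.4 CPM (46.3 to 63.4) in GM, where the interval of MoMacDC_c2 (40.4 to 49.1) overlapped it. Activated DCs (48.8 CPM, 4 UMIs) and MoMacDC_c2 (44.5 CPM) came next in the steady state, with overlapping intervals. MoMacDC_c2 had nearly equal levels in both libraries (44.5 and 44.6 CPM, ratio 0.996, 0.777 to 1.31), and it held 177 cells in the steady state and 1471 in GM. MoMacDC_c1 held 7 Zbtb46 UMIs in 1277 steady-state cells and 92 in 1342 GM cells, or 0.735 and 10.6 CPM, a ratio of 13.6 (6.73 to 36.9). MoMacDC_c4, whose steady-state cells carry NK markers, held 2 Zbtb46 UMIs in 43 steady-state cells and 76 in 595 GM cells (4.45 and 13.2 CPM). The MoMacDC-wide difference in Zbtb46 thus contained larger shares of c2, c4 and Progenitor DC cells, the last at 152 of 2135 and 393 of 3940 cells. Smaller shares of c1 (1277 and 1342 cells) and c5 (486 and 139 cells), both low in Zbtb46, were part of it too. The level was lower in GM in Progenitor DCs, and higher in c1 cells and, on 2 steady-state UMIs, in c4 cells.

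In the steady state Irf8 was highest in the cells labelled cDC2-A, which carry NK markers, at 1568 CPM. Macrophages (602 CPM), MoMacDC_c4 (563 CPM) and B cells (533 CPM), which use IRF8 in germinal centres, followed with overlapping intervals. In GM, macrophages (677 CPM), cells labelled cDC2-A (670 CPM) and B cells (629 CPM) had overlapping intervals. In MoMacDC_c1 it was at 394 and 270 CPM (ratio 0.684) and in MoMacDC_c2 at 227 and 168 CPM (ratio 0.739). Progenitor DCs stood far below all other MoMacDC types, at 29.9 CPM (21.1 to 41.3) and 11.4 CPM (7.9 to 15.9). T cells and neutrophils, which should lack the gene, were at 19.3 and 15.6 CPM in the steady state and 0 and 5.27 CPM in GM. MoMacDC_c4 was at 162 CPM in GM (ratio 0.287), and its steady-state cells are those with NK markers.

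Irf4 was highest in B cells, where it drives plasma cell differentiation, at 121 CPM (99.0 to 146) in the steady state and 59.8 CPM (33.4 to 98.6) in GM. MoMacDC_c2 came next, at 70.8 CPM (58.3 to 85.1) and 57.3 CPM (52.6 to 62.4). In the steady state these 2 levels and that of Progenitor DCs (41.3 CPM, 30.7 to 54.3) had intervals that did not overlap. In GM the intervals of B cells and MoMacDC_c2 overlapped. MoMacDC_c1 had 33.4 and 36.1 CPM (ratio 1.08), MoMacDC_c5 only 6.51 and 12.8 CPM, and no UMI was found in neutrophils (146 and 893 cells), which allows up to 2.75 and 0.608 CPM at 3 counts.

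**Figure D2:**
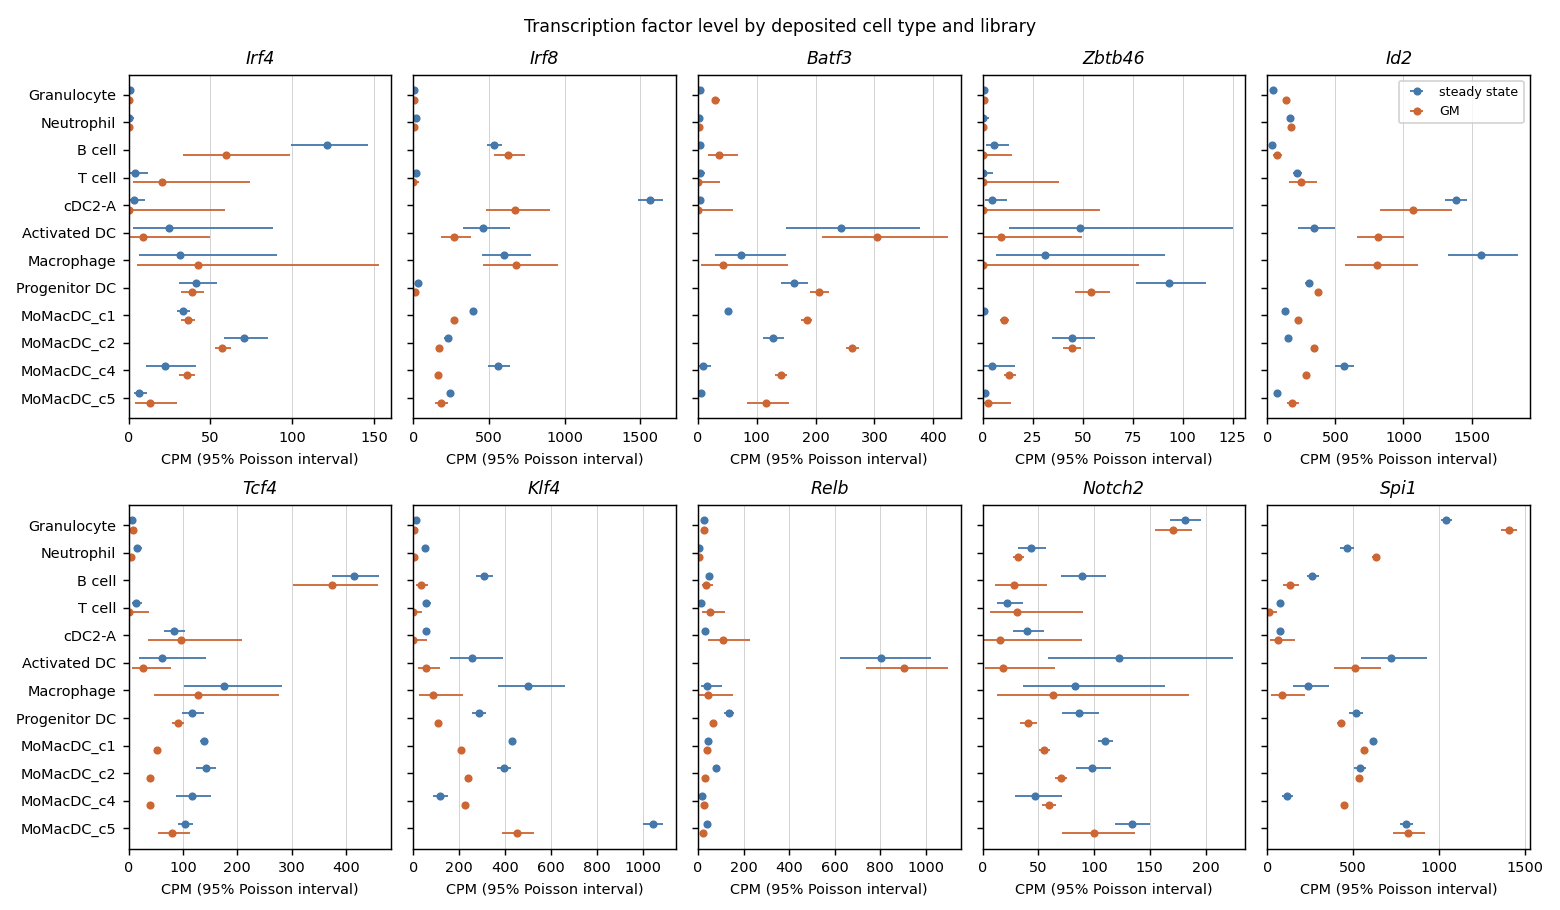
CPM of each gene in the deposited cell types, with steady state and GM side by side. The level of Batf3 is higher in GM in MoMacDC_c1, c2, c4 and c5, Irf8 is lowest among MoMacDC types in Progenitor DCs in both libraries, and Relb is highest in activated DCs.

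Relb was highest in activated DCs, at 805 CPM in 8 cells and 904 CPM in 20 cells, and Progenitor DCs had 135 and 64.4 CPM, both below with intervals that did not overlap. Id2 in macrophages (1567 and 804 CPM) and in cells labelled cDC2-A (1383 and 1068 CPM) was higher than in MoMacDC_c1 (133 and 226 CPM) or MoMacDC_c2 (148 and 340 CPM, ratio 2.29). Id2 in granulocytes was at 43.5 and 139 CPM, a ratio of 3.18 (2.63 to 3.87). Both Id2 and Batf3 were therefore called higher in GM granulocytes.

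Tcf4 was highest in B cells, which depend on E proteins, at 415 and 374 CPM (ratio 0.905). MoMacDC_c1 and c2 had similar levels in the steady state, 138 and 142 CPM, and lower ones in GM, 52.7 and 39.8 CPM (ratios 0.381 and 0.281). Progenitor DCs had 117 and 90.6 CPM (ratio 0.771). Klf4 was highest in MoMacDC_c5, at 1047 and 453 CPM (ratio 0.434). Notch2 was highest in granulocytes (182 and 171 CPM), and in MoMacDC_c1 it was at 110 and 55.4 CPM (ratio 0.505). Spi1 was also highest in granulocytes, at 1044 and 1409 CPM, a ratio of 1.35 (1.29 to 1.41).

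CD115hi subsets separate monocytes from the cells that carry MHC II. P-I cells are Ly6C+ classical monocytes, P-III cells carry MHC II without CD301b, and P-IV cells carry both. Of these P-I, P-III and P-IV subsets GM held 187, 126 and 313 cells, whereas the steady state held 139, 12 and 7, and only 8 P-II cells were found in each library. Comparisons between subsets therefore used GM cells, and P-I alone was compared between libraries.

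Zbtb46 had the largest ratio between P-IV and P-I of the 10 members. Its level in GM was 7.89 CPM (3.94 to 14.1) in P-I, 13.5 CPM (6.48 to 24.9) in P-III and 33.8 CPM (26.6 to 42.3) in P-IV, with 3.21%, 7.94% and 20.4% of cells positive. The ratio of P-IV over P-I was 4.13 (2.27 to 8.95), and that over P-III was 2.40 (1.29 to 5.42). The last value was 1.44 as a mean over cells and 1.72 in cells in G1 phase. GM cells without high CD115 had 28.9 CPM with 16.6% positive, so Zbtb46 was not confined to P-IV.

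Irf4 was at 25.8 CPM (18.1 to 35.7) in P-I, 37.9 CPM (25.2 to 54.7) in P-III and 54.3 CPM (45.1 to 64.8) in P-IV, with 16%, 19% and 28.8% positive. The ratio of P-IV over P-I was 2.08 (1.44 to 3.14), and it was 1.66 after thinning and 1.78 as a mean over cells. Between P-IV and P-III the ratio was 1.41 (0.944 to 2.25), an interval that includes 1. The level in P-IV was above that in P-I by more than counting error, and P-III overlapped with both. GM cells without high CD115 had 43.4 CPM (40.7 to 46.2) with 23.4% positive, so Irf4 too was not confined to P-IV.

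Batf3 and Id2 were higher in P-III and P-IV alike. Batf3 was at 143, 292 and 258 CPM in P-I, P-III and P-IV, with a ratio of P-III over P-I of 2.05 (1.68 to 2.49) and of P-IV over P-I of 1.80 (1.54 to 2.13). Id2 was at 242, 384 and 398 CPM. Irf8 had the opposite order, at 293 CPM (266 to 323), 257 CPM (222 to 296) and 168 CPM (152 to 186). Its ratio was 0.573 (0.497 to 0.661) for P-IV over P-I and 0.654 (0.548 to 0.783) for P-IV over P-III. Tcf4 (50.2, 37.9 and 39.6 CPM), Klf4 (200.1, 203 and 203 CPM) and Notch2 (59.5, 60.8 and 75.2 CPM) had overlapping intervals across the 3 subsets.

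By the 2-fold rule, Irf4 and Zbtb46 were called higher in P-IV than in P-I and none of the 10 members lower, beside 3.63% and 3.53% of 6803 genes. Batf3 was the only member called higher in P-III than in P-I of the 9 with enough UMIs and none was lower, beside 1.11% and 2.71% of 5233 genes. Its ratio was 1.93 in cells in G1 phase, which ends the call, and as a mean over cells Relb was also called, lower in P-III (ratio 0.496). Zbtb46 was the only one called higher in P-IV than in P-III and none was lower, beside 1.91% and 1.01% of 6216 genes.

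**Figure D3:**
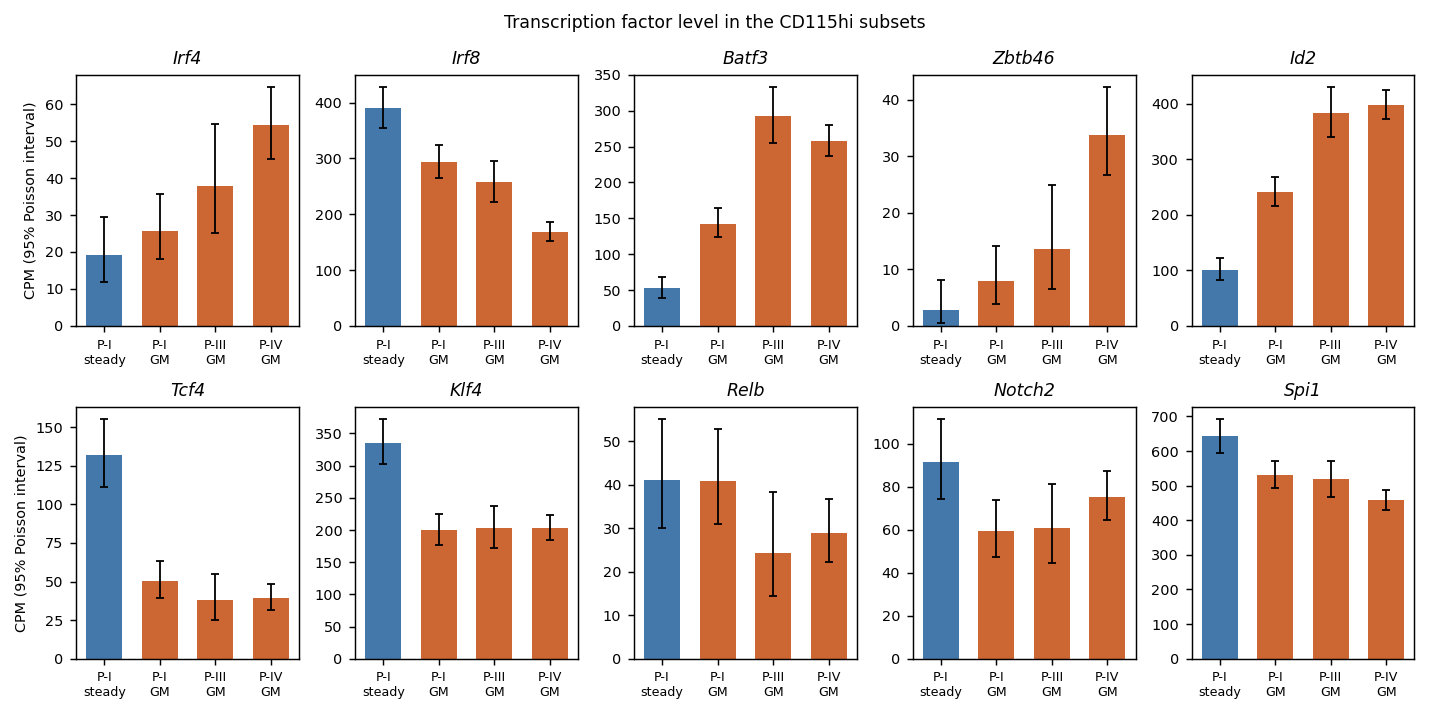
CPM of each gene in P-I cells of the steady state (139 cells) and in the subsets P-I (187 cells), P-III (126 cells) and P-IV (313 cells) of GM, with exact 95% Poisson intervals. Zbtb46 and Irf4 have their highest bars in P-IV, Irf8 declines across the bars from 390 to 168 CPM, and Tcf4 stands highest in steady-state P-I.

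P-I cells also differed between the libraries. Batf3 was at 52.2 CPM in steady-state P-I and 143 CPM in GM P-I, a ratio of 2.72 (2.03 to 3.74), and Id2 was at 102 and 242 CPM, a ratio of 2.37 (1.91 to 2.98). Tcf4 was at 132 and 50.2 CPM, a ratio of 0.382 (0.282 to 0.51), which was 0.657 after thinning. Irf8 (390 and 293 CPM) and Klf4 (336 and 200.1 CPM) were lower by less than the rule. Irf4 was at 19.2 and 25.8 CPM (ratio 1.33, 0.763 to 2.42), and Zbtb46 gave only 3 and 11 UMIs. Thus 2 of 9 members were called higher and 1 lower, beside 4.99% and 7.12% of 5774 genes.

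Cells labelled Progenitor DC were set beside the other MoMacDC cells. The label rests on the RNA of these cells, so the values are a description. In the steady state (152 and 1983 cells), Zbtb46 was at 93.1 CPM in Progenitor DCs and 5.98 CPM in the rest (ratio 15.5, 11.6 to 20.9), Batf3 at 163 and 50.7 CPM (ratio 3.23), Relb at 135 and 45.6 CPM (ratio 2.97) and Id2 at 304 and 139 CPM (ratio 2.19). Irf8 was at 29.9 and 356 CPM (ratio 0.0851). These 4 were called higher and Irf8 lower, beside 9.77% and 11.3% of 9569 genes.

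In GM (393 and 3547 cells) the same label was closer to the rest for Zbtb46, with 54.4 and 24.2 CPM (ratio 2.25, 1.87 to 2.67), a value that was 1.08 after thinning. Irf8 remained far lower, at 11.4 and 203 CPM (ratio 0.057, 0.0388 to 0.0785). Tcf4 (90.6 and 45.2 CPM, ratio 2.01) was called higher only just, with 1.94 after thinning, 1.88 as a mean over cells, 1.997 without doublets and 1.68 in G1 cells, and Klf4 (107 and 228 CPM, ratio 0.471) lower. These 2 members called higher and 2 lower stand beside 7.6% and 11.1% of 10279 genes. RNA clusters 9 and 12 had low Irf8 in both libraries, at 72.9 and 12.1 CPM and at 28.4 and 11.2 CPM.

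Among the RNA clusters, Irf4 was at 97.7 CPM (76.3 to 123) in steady-state cells of cluster 3 and 64.5 CPM (56.2 to 73.6) in GM cells, with 51.1% and 33.4% of cells positive. The same cluster had Zbtb46 at 55.0 and 50.9 CPM. Cluster 0 held 14 steady-state and 668 GM cells, and in GM it had Batf3 at 284 CPM, Id2 at 375 CPM and Zbtb46 at 40.2 CPM. Clusters 5 and 6 were nearly free of Zbtb46, with no UMI in 442 and 297 steady-state cells and with 3 and 0 UMIs in 141 and 108 GM cells. No UMI in these steady-state cells allows up to 0.880 and 1.36 CPM at 3 counts. Tcf4 was highest in cluster 16, at 614 CPM in 15 steady-state cells, and in cluster 13, at 339 CPM.

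Surface tags gave a readout that does not rest on the RNA. GM MoMacDC cells were ordered by each of 5 tags and cut into 4 bins of 985 cells. The same tags set the subset labels above. From the lowest to the highest bin of MHC II, Zbtb46 went from 8.11 to 37.1 CPM (ratio 4.53, 3.37 to 6.32). Irf4 went from an interval of 20.3 to 28.2 CPM to 52.4 CPM (ratio 2.18), a level it had reached in the third bin (52.3 CPM). Zbtb46 went the other way with Ly6C, from 46.2 to 8.58 CPM (ratio 0.187), and Irf4 had a ratio of 0.463. Irf8 was the reverse, with ratios of 0.547 for MHC II, 0.47 for CD11c and 1.61 for Ly6C, and with 119 and 214 CPM (ratio 1.80) for CD115. With CD115, Zbtb46 went from 37.4 to 22.3 CPM (ratio 0.598, 0.486 to 0.734), while Irf4 had a ratio of 1.15 (0.971 to 1.36).

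CD11c gave ratios of 4.06 for Zbtb46, 1.84 for Batf3, 1.87 for Id2 and 1.62 for Irf4. CD301b separated Zbtb46 (ratio 1.62) and Irf4 (ratio 1.45) less than MHC II did. Klf4 (ratio 1.01) and Notch2 (ratio 0.916) differed little between the outer bins of MHC II. Tags were compared within 1 library, and cells in a bin are not replicates.

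**Figure D4:**
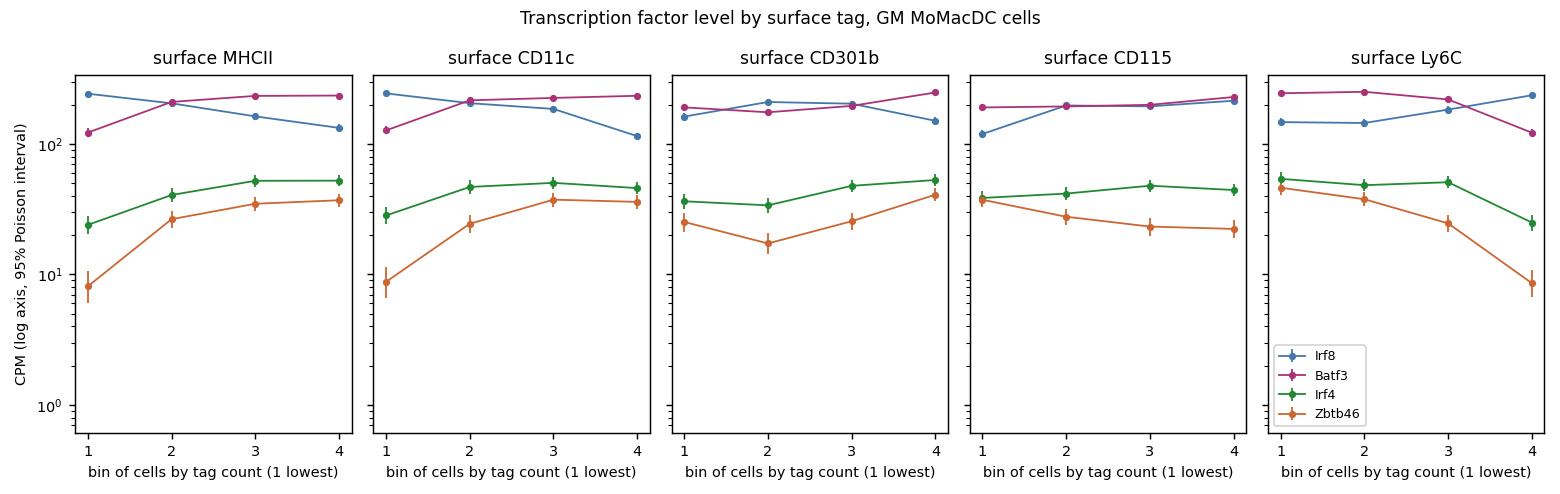
CPM (log axis, exact 95% Poisson intervals) of Irf8, Batf3, Irf4 and Zbtb46 in 4 bins of GM MoMacDC cells ordered by each of 5 surface tags, lowest bin first. From the lowest to the highest bin, Zbtb46 and Irf4 are higher with MHC II (ratios 4.53 and 2.18) and lower with Ly6C (0.187 and 0.463), and Irf8 runs the other way for both tags.

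Irf4 was read beside Mgl2, the gene of CD301b, in GM MoMacDC cells, because IRF4-dependent DCs with CD301b are known to prime type 2 helper T cells. Mgl2 (chr11:70130329-70137550, plus strand, GRCm38) had at least 1 UMI in 1501 cells and none in 2439. Irf4 (chr13:30749226-30766976, plus strand) was at 53.7 CPM in the Mgl2-positive cells and 35.7 CPM in the others, a ratio of 1.503 (1.34 to 1.69). The share of Irf4-positive cells was 30.8% (28.5 to 33.2) and 18.7% (17.2 to 20.3), at median depths of 7070 and 6338 UMIs. After thinning the shares were 6.94% and 4.34%, and the ratio was 1.64 (1.14 to 2.30).

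Both genes were found in 462 of 3940 cells (11.7%, 10.7 to 12.8), where the product of the separate shares gives 8.88%. Irf4 was not called by the 2-fold rule and 0 of the 10 members were, beside 2% of 10279 genes higher and 2.94% lower. Zbtb46 had the highest ratio of the members, 1.82 (1.57 to 2.11), followed by Batf3 at 1.38 and Id2 at 1.32, and Irf8 was at 0.852 and Tcf4 at 0.842.

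Within smaller groups of cells the ratio varied. In P-IV, 245 cells had Mgl2 and 68 had none, and Irf4 was at 49.4 CPM in the former and 78.1 in the latter (ratio 0.625, 0.415 to 0.989), with shares of 29.0% and 27.9% at median depths of 7251 and 5133 UMIs. After thinning that ratio was 1.22 (0.347 to 3.73). Both genes were found in 71 of 313 P-IV cells (22.7%), and the product of the shares gives 22.5%. Over 8 RNA clusters with enough cells, 7 had a ratio above 1, and the interval lay above 1 in 1 of them, cluster 7 (1.63, 1.13 to 2.32). The ratios ran from 0.753 (0.55 to 1.06) in cluster 3 to 2.83 (0.972 to 6.61) in cluster 2. With the cluster mix of the Mgl2-negative cells given to both groups, a step chosen after seeing the data, the ratio over these 8 clusters was 1.37.

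The CD301b tag gave a like picture. Cells above the median of the tag had an Irf4 ratio of 1.42 (1.26 to 1.60) over those below, and within P-IV it was 0.879 (0.605 to 1.27). Co-detection of Irf4 with Mgl2 over all GM MoMacDC cells thus exceeded the product of the shares, and within P-IV it was close to it. P-IV cells carry CD301b by definition, and 78.3% of them had an Mgl2 UMI. The comparisons within P-IV therefore had little contrast in Mgl2 or CD301b and cannot show whether Irf4 goes with them.

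**Figure D5:**
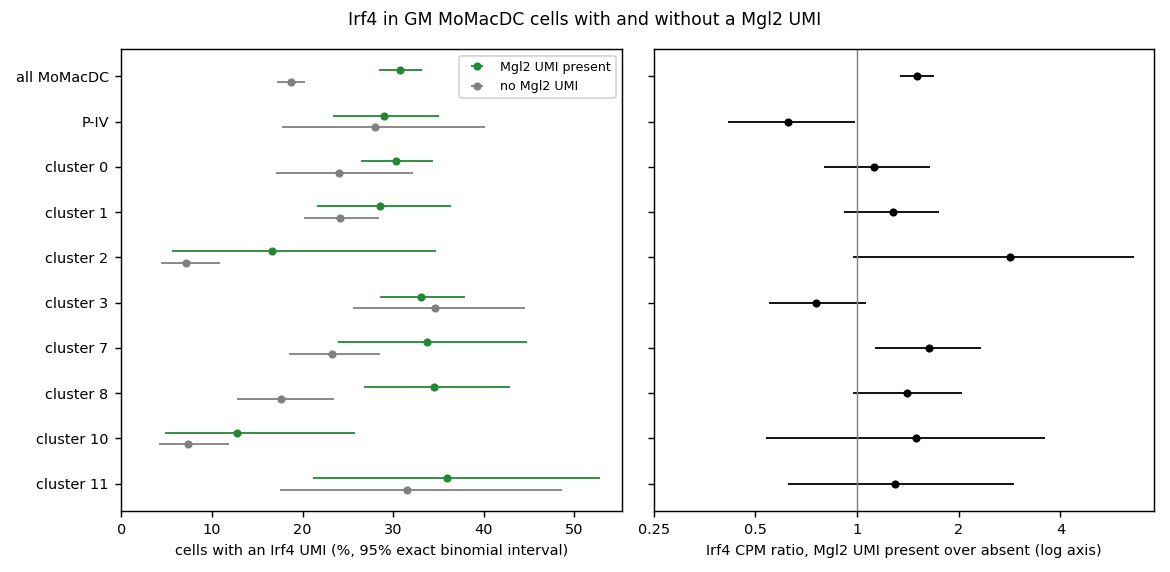
Share of GM MoMacDC cells with an Irf4 UMI, with and without an Mgl2 UMI (left, percent), and the ratio of Irf4 CPM between them (right, log axis), for all cells, P-IV and 8 RNA clusters, with exact 95% intervals. Over all cells the shares are 30.8% with Mgl2 and 18.7% without and the ratio lies above 1, while in P-IV the shares overlap and the ratio is 0.625.

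Genes that act with these factors were followed as a fixed list of 60. In MoMacDC cells 58 could be compared, with 2 called higher and 19 lower in GM, beside 8.66% and 9.46% of all genes. Mycl, a MYC family factor of DCs, was at 12.1 and 40.5 CPM (ratio 3.34), and Egr2 was at 4.15 and 18.5 CPM (ratio 4.43). The Notch targets Nrarp (11.3 and 0.369 CPM) and Hes1 (123 and 15.2 CPM), the AP-1 gene Fos (1147 and 152 CPM) and Cebpb (1711 and 319 CPM) were among those called lower. By group, each of only 7 to 12 genes compared, 0 of 12 IRF and AP-1 partners were higher and 4 lower, 0 of 11 NF-kB genes higher and 3 lower, and 0 of 8 Notch genes higher and 3 lower. Of E proteins and Id genes 0 of 8 were higher and 2 lower, of other DC factors 1 of 12 higher and 4 lower, and of PU.1 partners 1 of 7 higher and 3 lower.

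Between P-IV and P-I in GM, 50 of the partners could be compared, with 3 called higher and 3 lower in P-IV, beside 3.63% and 3.53% of all genes. Rbpj, the DNA-binding partner of Notch, was at 94.7 CPM in P-I and 205 CPM in P-IV (ratio 2.16), Mycl at 24.4 and 52.5 CPM (ratio 2.13), and Jun had a ratio of 2.02. Cebpb (560 and 106 CPM, ratio 0.190), Irf7 (94 and 36 UMIs, ratio 0.240) and Hes1 (30.8 and 11.1 CPM, ratio 0.364) were lower. Notch2 itself had 59.5 and 75.2 CPM. In P-I between the libraries, 0 of 50 partners were called higher and 15 lower, beside 4.99% and 7.12% of all genes.

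The genes most like each member were found by Pearson r of log levels over 23 groups of cells, given as a description, since groups share a library and its depth. Zbtb46 was most like Mycl (r 0.929), Relb most like Nfkb2 (0.826), Klf4 most like Clec4a1 (0.929) and Batf3 most like Avpi1 (0.927). Irf4 was most like Plekho1 (0.902), Irf8 like Cyp20a1 (0.885), Id2 like Ankrd50 (0.832), Tcf4 like Pkig (0.892), Notch2 like Zfp36 (0.913) and Spi1 like Dennd5a (0.935). Of the 3 most alike genes of each member, at least 2 stayed under Spearman correlation for 4 of the 10 members, and at most 1 stayed for any member when groups of at least 50 cells were used.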

How the data were processed

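The authors aligned reads with Cell Ranger to mm10 and filtered cells with Seurat, keeping 200 to 5000 genes and at most 15% mitochondrial reads. The deposited values are raw UMI counts per gene and cell, with a deposited percent of mitochondrial reads per cell and deposited cell types, clusters, subset labels and cell cycle phases. CITE-seq-Count made the deposited tag counts.

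Here the counts of each group of cells were added up and scaled by the total of that group (CPM). Intervals are exact Poisson for sums, Clopper-Pearson for shares and conditional binomial for ratios, all at 95%, with 0.5 counts added to each sum in a ratio. Shares were also computed after thinning each cell to 1000 UMIs, which left out 616 cells. Doublets were called with Scrublet in scanpy 1.11.5 (141 and 186 cells) and kept in the values given. Python 3.11.15, numpy 2.4.6, scipy 1.17.1 and pandas 2.3.3 were used, and the scripts were tested on simulated data. The members and gene lists were chosen with earlier results of these data known. Partner genes were named only if called, at most 4 in each direction, and the gene most like each member by Pearson correlation of log2(CPM + 1), over groups of at least 20 cells and genes with at least 200 UMIs.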

Additional observations from a re-analysis of the deposited data

Results flagged for a closer look

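Spi1 was set apart because its GM over steady-state ratio went in opposite directions in separate cell types. It was 3.82 (2.93 to 5.18) in MoMacDC_c4 and 0.21 (0.00351 to 0.821) in T cells, and this difference was not tested. The value in T cells rests on 1 UMI in GM, and the steady-state MoMacDC_c4 cells carried NK markers at 9487 CPM.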

How the results depend on the processing

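No paired analysis was possible because each condition has 1 library. Over the MoMacDC cells, 4 or 5 of the 10 members were called in every alternative run, all 10 kept their direction in 12 alternatives, and the Irf4 ratio between cells with and without Mgl2 ranged from 1.42 to 1.64. Counts of members called moved elsewhere. With thinning to 1000 UMIs they were 1 instead of 3 in P-I between libraries, 0 instead of 2 for P-IV over P-I, 2 instead of 4 for Progenitor DCs over the rest in GM, and 17 instead of 28 over pairs of member and cell type. As a mean over cells they were 1 instead of 2 for P-IV over P-I, 2 instead of 1 for P-III over P-I and 0 instead of 1 for P-IV over P-III. With cells in G1 only they were 0 instead of 1 for P-III over P-I and 0 instead of 1 for P-IV over P-III. Thinning leaves fewer UMIs against the same minimum of 50, and the ratio of Tcf4 in P-I itself moved, to 0.657. For the other moves the cause was not tested. Cells in G1 only were not run for the cell types, since phases were deposited for MoMacDC cells alone. Leaving out MoMacDC_c4, cluster 16 or cells with NK or T cell markers was chosen after seeing the data. Depth limits what can be said of Zbtb46 and Irf4, with 3 and 21 UMIs in steady-state P-I cells.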

Other observations

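Cells with a Zbtb46 UMI were compared with cells without one, a split chosen after seeing the data. In the steady state (139 and 1996 MoMacDC cells) the positive cells had more Batf3 (ratio 2.46), Relb (2.22), Id2 (1.59) and Irf4 (1.41), and less Irf8 (0.398, 0.34 to 0.459). Without Progenitor DCs (64 and 1919 cells) the ratios were 2.38 for Batf3, 1.80 for Irf4 and 0.629 for Irf8. In GM (624 and 3316 cells) the ratios were nearer to 1, at 1.24 for Batf3, 1.28 for Id2, 1.13 for Irf4 (0.967 to 1.3) and 0.657 for Irf8. Progenitor DCs, with Irf8 at 11.4 CPM in GM, made up 126 of the 624 positive cells. The GM ratios without them are not given, so their part in the Irf8 ratio was not tested. These values were given with no test, since cells of 1 library are not replicates.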
